A study of Mus musculus with 20 samples.

Results

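The cytosolic sulfotransferases described here are 10 mouse genes, Sult1a1, Sult1b1, Sult1d1, Sult1e1, Sult2a1, Sult2a2, Sult2a8, Sult3a1, Sult3a2 and Sult5a1, chosen by gene symbol from the 36106 genes of a liver RNA sequencing study. Each symbol matched 1 gene of the table. The study asked how loss of testicular hormones and intermittent hypoxia, repeated drops in oxygen that model sleep apnoea, act on the liver of male mice. Orchiectomy (ORX) removes the testes, sham surgery (Sham) leaves them in place, and each operation was combined with 2 weeks of intermittent hypoxia (IH) or of normal air (normoxia, Nx). The libraries fell into ORX_IH (n = 5), ORX_Nx (n = 5), Sham_IH (n = 5) and Sham_Nx (n = 4), each from the liver of 1 mouse, and a further Sham_Nx mouse, number 1, was not analysed here. All mice were male, and their strain, age and genotype are not given in the sources used here.

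Sulfotransferases of the cytosol move a sulfate group from the activated donor PAPS onto a hydroxyl or amino group, which makes phenols, steroids, bile acids, catecholamines and amines easier to excrete and usually ends their hormonal activity. The liver is a main site of the reaction. In mice several members of the family are known to differ between male and female liver, where the secretion pattern of growth hormone, itself set by sex hormones, controls many genes.

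Sequencing depth, as the total of estimated counts, ranged over 29.3 to 69.6 M, with group means of 54.5 M in ORX_IH, 55.0 M in ORX_Nx, 48.7 M in Sham_IH and 58.2 M in Sham_Nx. In the shallowest library 3 counts, taken as the detection floor, are 0.102 counts per 1000000 of its total, and this floor covers counting error only. Levels below are counts per 1000000 counts of the scaled library size (CPM). The 7 hepatocyte markers were above 0 in every library, with summed levels of 99039.9 to 120111 CPM in ORX_IH, 74159 to 119677 CPM in ORX_Nx, 103756 to 111371 CPM in Sham_IH and 83095 to 94732 CPM in Sham_Nx. Libraries that stood apart by markers of other tissues were ORX_IH 1 and 2 and Sham_Nx 2 and 3 for 11 skeletal muscle genes (883, 519.8, 148 and 36.7 CPM in sum, against 0.932 to 7.29 CPM in the rest) and Sham_IH 5, Sham_Nx 5 and ORX_IH 1 for 12 pancreatic genes (1347, 552 and 241 CPM, against 4.17 to 26.4 CPM). The first set is called the muscle-rich libraries and the second the pancreas-rich libraries below. Fits without the muscle-rich libraries keep only Sham_Nx 4 and 5 and ORX_IH 3, 4 and 5 of those groups. In these fits the loss of replicates goes with the loss of muscle genes, and the part of each was not tested. Acute phase genes averaged highest on the log2 scale in ORX_Nx 4 and 5, and 10 Kupffer cell genes summed to 238 to 374 CPM in ORX_IH, 259 to 1100.3 CPM in ORX_Nx, 172 to 229 CPM in Sham_IH and 193 to 315 CPM in Sham_Nx. The 11 lymphocyte genes summed to 6.47 to 14.2 CPM in ORX_IH, 7.87 to 18.8 CPM in ORX_Nx, 4.24 to 5.2 CPM in Sham_IH and 4.81 to 6.52 CPM in Sham_Nx, so that within each exposure the orchiectomized livers lay above the sham-operated ones. The part of these differences in the results below was not tested beyond the fits without those libraries. In whole liver, fewer cells that make a transcript and less of it per cell cannot be told apart.

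After orchiectomy the members moved in different directions. In both exposures the amine sulfotransferase Sult3a1 and, at far lower counts, its neighbour Sult3a2 were called higher, against a few counts or none in most sham-operated livers. The bile acid sulfotransferase Sult2a8, the most abundant member per length in sham-operated livers, was called lower in both. In normoxia the phenol sulfotransferase Sult1a1 and the sparsely counted Sult2a1 and Sult2a2 were also called higher and Sult5a1 lower. These 4 were not called under intermittent hypoxia, and the interaction of none of them was called. A gene was called changed at a Benjamini-Hochberg (BH) adjusted p under 0.05 in edgeR's quasi-likelihood test over 16164 genes, and changes are given on the log2 scale ± SE. In ORX_Nx against Sham_Nx 7 of the 10 members were called, 5 higher and 2 lower, where 14.3% of all genes tested were called, 7.88% higher and 6.46% lower. In ORX_IH against Sham_IH 3 members were called, 2 higher and 1 lower, where 2.88% of all genes were called, 1.31% higher and 1.57% lower. With orchiectomy averaged over both exposures 8 members were called, 6 higher and 2 lower, against 22.0% of all genes, 11.8% higher and 10.1% lower. Sult2a1, Sult2a2, Sult3a1 and Sult3a2 passed the filter on low counts almost entirely through the orchiectomized livers, so these 4 had to differ, and their calls give no support to a statement on the family. Of the 6 other members, 1 was called higher and 2 lower in ORX_Nx, 1 lower in ORX_IH, and 2 higher and 2 lower in the average.

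The count in normoxia depended on the fit. It was 1, Sult3a1, with only the ORX_Nx and Sham_Nx libraries in the fit, where 918 of 15342 genes were called. Sult2a1, Sult2a2 and Sult3a2 missed the filter on low counts in that fit and were not tested. Sult1a1, Sult2a8 and Sult5a1 were tested there and missed the threshold. Without the muscle-rich libraries it was also 1, again Sult3a1, where 422 of 16697 genes were called. In the main fit 2319 of 16164 genes were called, so the calls over all genes fell as well. With no scaling factors between libraries the median of all genes moved to 0.14 log2 in normoxia and 0.127 under intermittent hypoxia, against 0.013 in normoxia and −0.004 under intermittent hypoxia with scaling. The split over all genes in normoxia was then 2362 higher and 372 lower, against 1274 higher and 1045 lower with scaling. Under intermittent hypoxia 4 members were then called higher and 1 lower, where 830 of 16164 genes were called higher and 141 lower. The direction of each of the 8 members called in the average stayed the same under every scaling. The median log2 change of the 6 members with counts in every sham-operated liver was 0.26 in normoxia and 0.18 under intermittent hypoxia. All genes tested had the medians given above. The 6 include Sult1e1, at 0.57 in normoxia and 1.29 under intermittent hypoxia, which was near the detection floor. It passed the filter's cut in 2 Sham_IH livers and 1 Sham_Nx liver, against 4 ORX_IH and 2 ORX_Nx livers. These medians therefore give no support to a statement on the family.

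**Figure D1:**
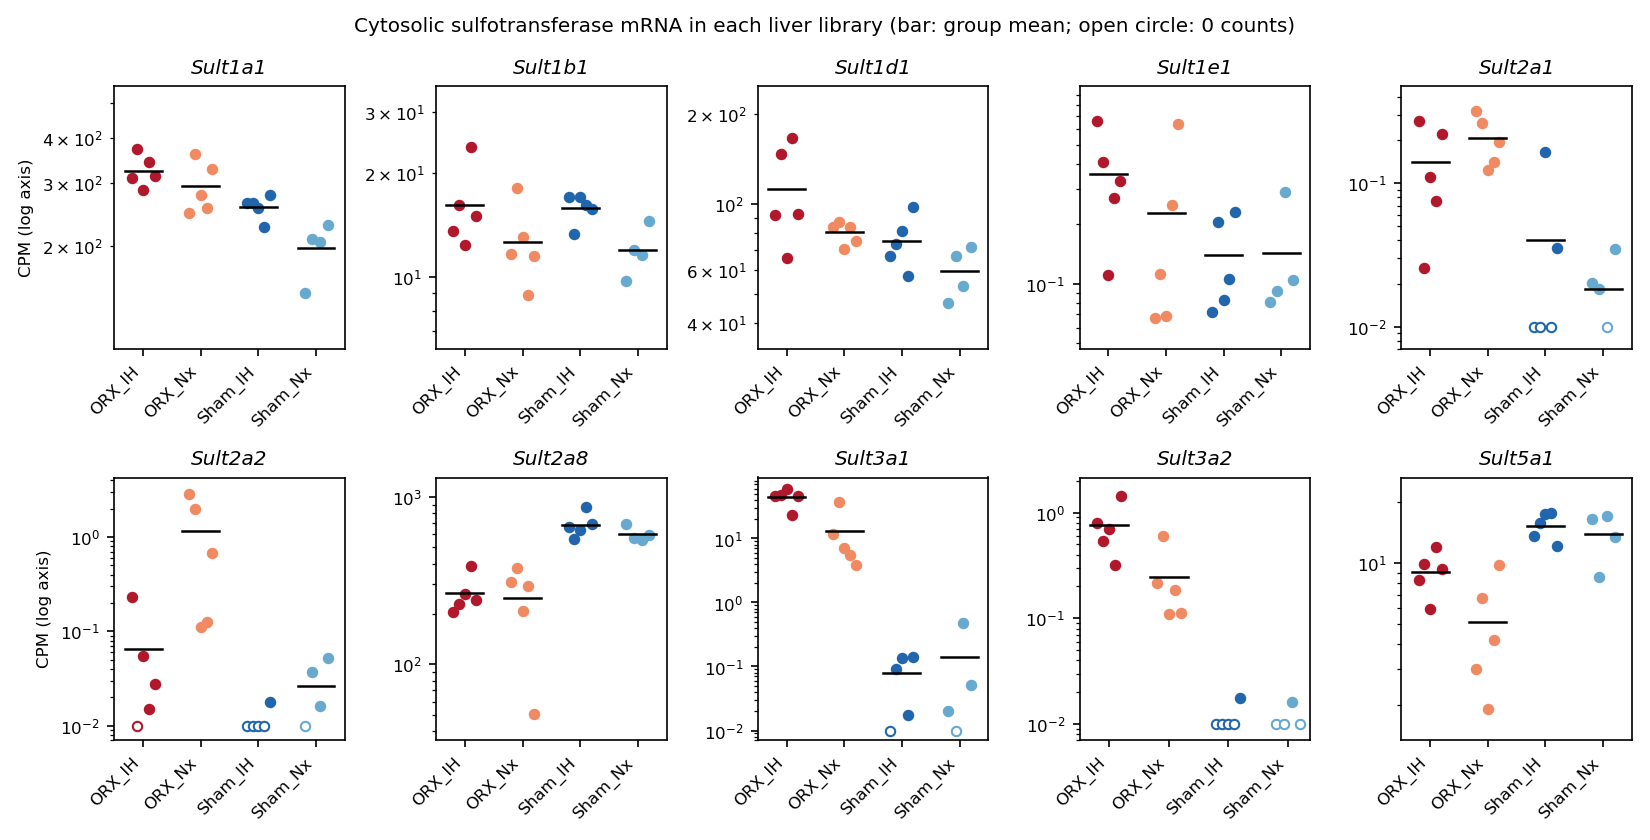
Levels of the 10 sulfotransferases in each liver, in CPM on a log scale, by group (ORX_IH, ORX_Nx, Sham_IH and Sham_Nx). Filled points are single mice, open circles drawn at 0.01 CPM are libraries with 0 counts, and bars are group means, left out where a mean is under 0.01 CPM. Sult3a1 and Sult3a2 are higher in every orchiectomized liver than in every sham-operated liver, and Sult2a8 is lower.

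Promoter sequences are shown for the members whose groups separated most, the Sult3a genes and Sult2a8, and for Sult5a1, the other member that fell. They are the 250 bases before the listed start, from RefSeq on GRCm38.p6, read 5′ to 3′ on the gene's strand. That build differs from the GRCm39 build of the deposited values. Capitals mark matches, on either strand, to a STAT5 site (TTCNNNGAA), a TATA box (TATAAA), an Onecut core (ATTGAT) or the core element of nuclear receptors (AGGTCA). The windows are Sult3a1 at chr10:33857472-33857721 on the plus strand, whose listed start lies inside the gene's RefSeq span, Sult3a2 at chr10:33782116-33782365 on the minus strand, Sult2a8 at chr7:14446588-14446837 and chr7:14438552-14438801 on the minus strand, and Sult5a1 at chr8:123158281-123158530 on the minus strand.
Sult3a1: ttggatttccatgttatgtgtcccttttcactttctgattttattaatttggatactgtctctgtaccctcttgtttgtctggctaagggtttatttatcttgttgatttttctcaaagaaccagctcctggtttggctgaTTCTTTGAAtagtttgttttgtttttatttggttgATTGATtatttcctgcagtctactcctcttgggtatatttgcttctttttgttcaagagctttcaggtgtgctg
Sult3a2: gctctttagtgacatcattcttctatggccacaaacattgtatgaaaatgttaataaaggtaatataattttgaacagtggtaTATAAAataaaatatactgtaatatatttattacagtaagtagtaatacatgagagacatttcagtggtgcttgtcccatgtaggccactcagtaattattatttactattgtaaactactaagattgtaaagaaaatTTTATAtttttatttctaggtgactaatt
Sult2a8 start 1: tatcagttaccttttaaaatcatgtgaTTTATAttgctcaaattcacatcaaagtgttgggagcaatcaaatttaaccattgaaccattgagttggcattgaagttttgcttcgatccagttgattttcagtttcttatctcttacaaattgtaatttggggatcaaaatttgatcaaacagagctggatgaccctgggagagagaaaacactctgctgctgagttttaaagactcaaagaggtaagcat
Sult2a8 start 2: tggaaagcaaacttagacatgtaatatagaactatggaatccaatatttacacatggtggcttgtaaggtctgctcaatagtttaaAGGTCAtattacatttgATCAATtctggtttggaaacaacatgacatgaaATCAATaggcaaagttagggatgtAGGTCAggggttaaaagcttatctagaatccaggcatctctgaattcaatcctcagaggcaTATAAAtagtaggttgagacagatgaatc
Sult5a1: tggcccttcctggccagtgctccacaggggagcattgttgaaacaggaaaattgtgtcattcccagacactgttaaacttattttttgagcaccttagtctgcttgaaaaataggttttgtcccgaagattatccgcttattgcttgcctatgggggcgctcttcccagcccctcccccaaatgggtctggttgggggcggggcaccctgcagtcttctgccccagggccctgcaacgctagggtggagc

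The Sult3a1 window held a STAT5 match, TTCTTTGAA, 109 to 101 bases before the start and an Onecut match 74 to 69 bases before it. The Sult3a2 window held no match to either and had TATA box matches 167 to 162 and 29 to 24 bases before the start. At Sult2a8 the second start had a TATA box match at 29 to 24 bases, Onecut matches at 147 to 142 bases and once more nearer the start, and nuclear receptor element matches at 164 to 159 and 90 to 85 bases. The first Sult2a8 window held a TATA box match, at 223 to 218 bases, and none of the other motifs, and the Sult5a1 window held none of the 4. Windows were available for 8 members and gave 10 in all. A STAT5 match occurred in 1 of the 10 and in 7.02% of 32851 mouse promoter windows of the same length, and an Onecut match in 2 of the 10 and 6.72% of all. TATA box matches were in 3 of the 10 windows and 12.4% of all, and nuclear receptor element matches in 3 of the 10 and 14.0% of all. These matches are letters in a window and not sites of binding.

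Sult3a1, which encodes an amine N-sulfotransferase, had 45.3, 47.4, 59.7, 23.1 and 45.9 CPM in ORX_IH mice 1 to 5. In ORX_Nx mice 1 to 5 it had 11.7, 37.4, 7.17, 5.48 and 3.91 CPM. The sham-operated livers held few counts, with 0, 5, 5, 1 and 8 counts in Sham_IH mice 1 to 5 and 1, 0, 30 and 3 counts in Sham_Nx mice 2 to 5. Every orchiectomized liver was therefore above every sham-operated liver, whose highest level was 0.485 CPM in Sham_Nx 4. Sult3a1 rose by 9.03 ± 0.86 (log2 ± SE) in ORX_IH against Sham_IH (edgeR BH-adjusted p = 6.34e-06) and by 6.44 ± 0.84 in ORX_Nx against Sham_Nx (adjusted p = 9.16e-05). The ratio of summed counts per depth was 536 (95% exact interval 343 to 891) for ORX_IH over Sham_IH and 85.3 (60.9 to 123) for ORX_Nx over Sham_Nx, intervals that cover counting error only. Sham_Nx 4 held 30 of the 34 counts of its group, and without it the change in normoxia was 8.92. Without ORX_Nx 2, the highest library of its group, that change was 5.55, and without the muscle-rich libraries it was 5.57 (adjusted p = 0.0128). In the average Sult3a1 rose by 7.74 ± 0.61 (adjusted p = 9.77e-08). Limma-voom gave 7.38 with an adjusted p of 0.0539, which ends the call in normoxia.

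Sult3a2 is the closest relative of Sult3a1 and lies beside it in RefSeq's annotation of GRCm38.p6. Its counts were 55, 21, 51, 21 and 52 in ORX_IH mice 1 to 5 and 13, 32, 8, 12 and 4 in ORX_Nx mice 1 to 5, against 0, 0, 0, 0 and 1 in Sham_IH mice 1 to 5 and 0, 0, 1 and 0 in Sham_Nx mice 2 to 5. As with Sult3a1, the orchiectomized and sham-operated livers did not overlap. Sult3a2 rose by 6.83 ± 0.82 (edgeR BH-adjusted p = 5.81e-05) under intermittent hypoxia and by 5.20 ± 0.90 (adjusted p = 0.00137) in normoxia. With 1 count in each sham group, these fitted changes depend on the prior count. The ratio of summed counts per depth was 163 (95% exact interval 28.9 to 6454) for ORX_IH over Sham_IH and 54 (9.37 to 2162) for ORX_Nx over Sham_Nx. Without Sham_IH 5, the library with the count, the change under intermittent hypoxia was 8.34, and without Sham_Nx 4 the one in normoxia was 6.73. Without ORX_Nx 2 the change in normoxia was 4.57, and without the muscle-rich libraries it was 4.54 with an adjusted p of 0.0594, which ends the call. In the average Sult3a2 rose by 6.01 ± 0.61 (adjusted p = 2.1e-06).

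Per length, Sult3a1 exceeded Sult3a2 in all 10 orchiectomized livers. The ratio of their length-scaled levels (RPKM, CPM divided by the deposited mean length in kilobases) was 25.1 to 68.2 in ORX_IH, with a median of 56.7, and 22.8 to 50.7 in ORX_Nx, with a median of 41.8. In GENCODE M21 transcripts 13.8% of the 31-base words of Sult3a1 and 17.2% of those of Sult3a2 occurred in the other gene, so a part of the reads could be assigned to either. With the pair summed and tested as 1 gene, the change was 8.99 under intermittent hypoxia and 6.43 in normoxia.

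Sult2a1 and Sult2a2 belong to the hydroxysteroid sulfotransferases, which act on steroids such as dehydroepiandrosterone and on bile acids. Sult2a2 had 16, 0, 4, 1 and 1 counts in ORX_IH mice 1 to 5 and 170, 105, 8, 8 and 24 counts in ORX_Nx mice 1 to 5, against 0, 0, 0, 0 and 1 counts in Sham_IH and 0, 2, 1 and 3 counts in Sham_Nx mice 2 to 5. ORX_Nx mice 1 and 2 carried most of the signal of the whole study, the ORX_Nx and Sham_Nx livers did not overlap, and ORX_IH and Sham_IH did. In normoxia Sult2a2 rose by 5.30 ± 1.12 (edgeR BH-adjusted p = 0.00581), with a ratio of summed counts per depth of 41.1 (95% exact interval 18.7 to 113). Under intermittent hypoxia the change of 3.50 ± 1.60 was not called (adjusted p = 0.265), and the ratio was 17.9 (2.89 to 738). The call in normoxia ended with limma-voom (4.12, adjusted p = 0.102), without mouse 5 of each group (5.95, adjusted p = 0.0501) and without the muscle-rich libraries (4.99, adjusted p = 0.0684). In the average Sult2a2 rose by 4.40 ± 0.94 (edgeR BH-adjusted p = 0.00334), a call that ended with limma-voom (2.96, adjusted p = 0.111) and without the muscle-rich libraries (3.72, adjusted p = 0.0665).

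Sult2a1 had 19, 1, 8, 5 and 8 counts in ORX_IH mice 1 to 5 and 19, 14, 9, 9 and 7 counts in ORX_Nx mice 1 to 5, against 0, 0, 6, 0 and 2 counts in Sham_IH and 1, 1, 0 and 2 counts in Sham_Nx mice 2 to 5. No liver held more than 19 counts, and only the normoxic groups were free of overlap. In normoxia Sult2a1 rose by 3.37 ± 0.93 (edgeR BH-adjusted p = 0.0234), with a ratio of summed counts per depth of 11.3 (95% exact interval 4.2 to 43). The call ended without Sham_Nx 2, without Sham_Nx 3 and without Sham_Nx 4, with adjusted p between 0.0554 and 0.0799, and likewise without the muscle-rich libraries (0.146), without the pancreas-rich libraries (0.0542) and without mouse 5 of each group (0.0749). Under intermittent hypoxia the change was 1.90 ± 0.83 (adjusted p = 0.242) and the ratio 4.17 (1.93 to 10.3). Averaged over exposures it was 2.63 ± 0.62 (adjusted p = 0.0065), and 3.45 without Sham_IH 3, which held 6 of the 8 counts of its group. Of the 31-base words of Sult2a1, 55.6% occurred in other genes, 39.9% in Sult2a2. For Sult2a2 the share was 74.5%, with 55.6% in Sult2a1 and 41.1% in Sult2a5, so the levels of the single genes are uncertain. With Sult2a1 and Sult2a2 summed, the change was 4.85 in normoxia (adjusted p = 0.00649) and 2.32 under intermittent hypoxia (adjusted p = 0.252).

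Sult2a8 encodes a bile acid sulfotransferase of mouse liver. It had 206, 229, 265, 385 and 242 CPM in ORX_IH mice 1 to 5 and 311, 375, 209, 295 and 50.2 CPM in ORX_Nx mice 1 to 5. Sham_IH mice 1 to 5 had 659, 563, 635, 871 and 686 CPM, and Sham_Nx mice 2 to 5 had 688, 569.8, 551 and 592 CPM. All 10 orchiectomized livers lay below all 9 sham-operated livers, and ORX_Nx 5 was by far the lowest. Sult2a8 fell by 1.36 ± 0.33 in ORX_IH against Sham_IH (edgeR BH-adjusted p = 0.0312), by 1.27 ± 0.34 in ORX_Nx against Sham_Nx (adjusted p = 0.0206) and by 1.32 ± 0.24 in the average (adjusted p = 0.000967).

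The Sult2a8 call of the average held in all 19 fits with 1 library left out. The separate calls were less stable. The one under intermittent hypoxia was lost in 8 of those 19 fits, without ORX_IH 1, 2, 3 or 5 or Sham_IH 1, 3, 4 or 5, at adjusted p between 0.0541 and 0.0915, with limma-voom (0.0921), with limma-trend on the authors' table (0.0638), without the muscle-rich libraries (0.326) and without the pancreas-rich libraries (0.178). The one in normoxia was lost without Sham_Nx 2 (0.053), without the muscle-rich libraries (0.137), without the pancreas-rich libraries (0.0601) and with only the groups compared in the fit (0.0939). The 2 libraries highest in acute phase genes include ORX_Nx 5, and without them the change in normoxia was −1.01 with an adjusted p of 0.00664.

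Sult5a1, a member whose natural substrates are poorly known, had 8.30, 9.92, 5.98, 12.0 and 9.34 CPM in ORX_IH mice 1 to 5 and 3.00, 6.76, 1.91, 4.17 and 9.80 CPM in ORX_Nx mice 1 to 5. It had 13.7, 15.8, 17.5, 17.7 and 12.2 CPM in Sham_IH mice 1 to 5 and 16.5, 8.59, 17.1 and 13.5 CPM in Sham_Nx mice 2 to 5. ORX_IH and Sham_IH did not overlap, while Sham_Nx 3 fell within the range of ORX_Nx. Sult5a1 fell by 1.46 ± 0.34 in ORX_Nx against Sham_Nx (edgeR BH-adjusted p = 0.00952) and by 1.11 ± 0.23 in the average (adjusted p = 0.00296). In ORX_IH against Sham_IH its change was −0.76 ± 0.32 and was not called (adjusted p = 0.22). The call in normoxia ended with only the groups compared in the fit (adjusted p = 0.0639) and without the muscle-rich libraries (0.0547), and with only the compared groups the change under intermittent hypoxia was called (0.0301).

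**Figure D2:**
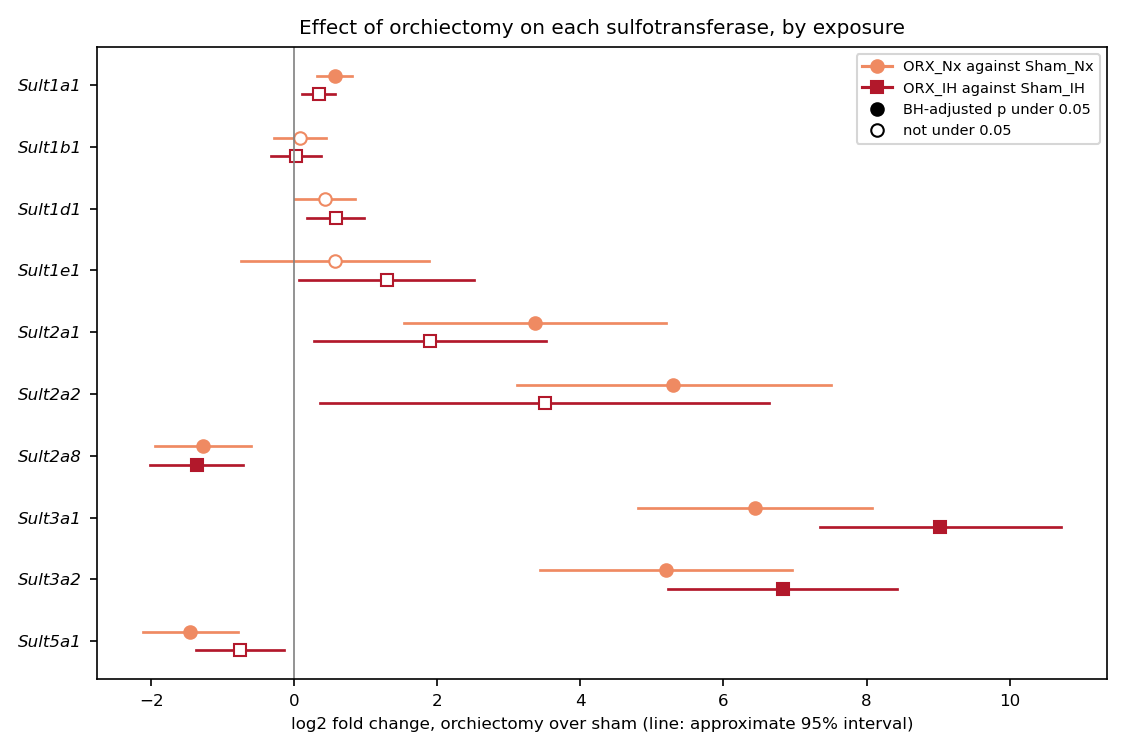
Log2 fold change of each sulfotransferase for ORX_IH over Sham_IH and ORX_Nx over Sham_Nx, with bars for an approximate 95% interval from the standard error and filled points for a BH-adjusted p under 0.05. The bars use the normal quantile and can leave out 0 where the unadjusted p is above 0.05. Sult3a1 lies at 9.03 and 6.44, Sult2a8 at −1.36 and −1.27, and the intervals of Sult1b1 include 0 in both exposures.

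Sult1a1 encodes the main phenol sulfotransferase of liver. It had 309, 372, 287, 342 and 313 CPM in ORX_IH mice 1 to 5 and 247, 361, 277, 255 and 327 CPM in ORX_Nx mice 1 to 5. Sham_IH mice 1 to 5 had 263, 263, 255, 226 and 277 CPM, and Sham_Nx mice 2 to 5 had 148, 209, 206 and 229 CPM. Within each exposure the orchiectomized livers lay above the sham-operated ones, but ORX_Nx overlapped Sham_IH. Sult1a1 rose by 0.57 ± 0.13 in ORX_Nx against Sham_Nx (edgeR BH-adjusted p = 0.00784) and by 0.45 ± 0.09 in the average (adjusted p = 0.00153). In ORX_IH against Sham_IH the change of 0.34 ± 0.12 was not called (adjusted p = 0.14), though it was with no scaling factors (0.46, adjusted p = 0.0268) and with only the groups compared in the fit (0.35, adjusted p = 0.0375). The call in normoxia ended with only the groups compared in the fit (adjusted p = 0.0554) and without the muscle-rich libraries (0.109).

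Sult1d1, a phenol and catecholamine sulfotransferase, had 91.7, 147, 65.8, 166 and 92.8 CPM in ORX_IH mice 1 to 5 and 83.8, 87.3, 70.8, 84.0 and 75.3 CPM in ORX_Nx mice 1 to 5. It had 66.8, 73.3, 81.4, 57.5 and 97.7 CPM in Sham_IH mice 1 to 5 and 46.6, 67.1, 53.1 and 71.6 CPM in Sham_Nx mice 2 to 5. ORX_IH mice 2 and 4 were the highest of all, and the groups overlapped in both exposures. The separate changes, 0.58 ± 0.20 in ORX_IH against Sham_IH (edgeR BH-adjusted p = 0.14) and 0.43 ± 0.22 in ORX_Nx against Sham_Nx (adjusted p = 0.189), were not called, although without ORX_IH 3 the one under intermittent hypoxia was (0.73, adjusted p = 0.0342). In the average Sult1d1 rose by 0.50 ± 0.15 (adjusted p = 0.0212), and that call ended without the muscle-rich libraries (0.44, adjusted p = 0.135).

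Sult1b1, which acts on small phenols and thyroid hormones, averaged 16.2 ± 4.46 CPM (SD, n = 5) in ORX_IH, 12.7 ± 3.42 CPM (SD, n = 5) in ORX_Nx, 15.8 ± 1.51 CPM (SD, n = 5) in Sham_IH and 12.0 ± 1.95 CPM (SD, n = 4) in Sham_Nx. Its change after orchiectomy was 0.03 ± 0.18 under intermittent hypoxia (95% interval −0.32 to 0.38, edgeR BH-adjusted p = 0.953). In normoxia it was 0.08 ± 0.19 (−0.29 to 0.45, adjusted p = 0.81). Neither was called, and leaving out 1 library turned the sign of each. In the average it was 0.06 ± 0.13 (adjusted p = 0.785).

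Sult1e1, the estrogen sulfotransferase, was near the detection floor. It had 46, 16, 8, 18 and 12 counts in ORX_IH mice 1 to 5 and 4, 6, 5, 16 and 23 counts in ORX_Nx mice 1 to 5, against 2, 11, 3, 6 and 13 counts in Sham_IH mice 1 to 5 and 4, 5, 18 and 6 counts in Sham_Nx mice 2 to 5. The highest level, 0.663 CPM, was in ORX_IH 1 and the next, 0.642 CPM, in ORX_Nx 5. These are among the 3 libraries highest in the mean log2 level of 12 acute phase genes, where ORX_Nx 4 had 8.178, ORX_Nx 5 7.627 and ORX_IH 1 7.377, and the part of that in the result was not tested apart from leaving out libraries. Sult1e1 changed by 1.29 ± 0.62 under intermittent hypoxia (edgeR BH-adjusted p = 0.299) and by 0.57 ± 0.67 in normoxia (adjusted p = 0.607), and neither was called, nor was the average of 0.93 ± 0.46 (adjusted p = 0.154). Without ORX_Nx 4 and 5 the value in normoxia was −0.80.

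Levels per length put the members in order. In Sham_Nx livers Sult2a8 averaged 429 ± 43.5 RPKM (SD, n = 4) and Sult1a1 183 ± 32.2 RPKM, followed by Sult1d1 at 28.2 ± 5.54, Sult5a1 at 13.1 ± 3.65 and Sult1b1 at 8.96 ± 1.46 RPKM. The spreads of Sult5a1 and Sult1b1 met, and the other 5 members were below 0.2 RPKM on average. In ORX_Nx livers Sult1a1 averaged 271 ± 45.2 RPKM (SD, n = 5) and Sult2a8 177 ± 89.7 RPKM, so the order of the first pair was turned round. In ORX_IH livers Sult3a1, at 48.3 ± 14.4 RPKM (SD, n = 5), stood beside Sult1d1 at 53.2 ± 19.8 RPKM, and the pair did not differ beyond their spread.

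The ratio of Sult2a8 to Sult1a1 RPKM was 0.477 to 0.875 in ORX_IH and 0.119 to 0.976 in ORX_Nx, against 1.66 to 2.99 in Sham_IH and 2.0 to 3.6 in Sham_Nx. Every orchiectomized liver thus held more Sult1a1 than Sult2a8 per length, and every sham-operated liver more Sult2a8. Of the summed RPKM of the 10 members, Sult2a8 made up 30.7% in ORX_IH, 32.8% in ORX_Nx, 61.7% in Sham_IH and 64.7% in Sham_Nx, and Sult1a1 made up 49.0% in ORX_IH, 53.9% in ORX_Nx, 30.4% in Sham_IH and 27.6% in Sham_Nx. Sult3a1 made up 8.12% in ORX_IH and 2.43% in ORX_Nx, against 0.0111% in Sham_IH and 0.0236% in Sham_Nx. The sum itself was 613 ± 73.7 RPKM in ORX_IH, 518 ± 117 RPKM in ORX_Nx, 788 ± 68.6 RPKM in Sham_IH (SD, n = 5 each) and 663 ± 25.2 RPKM in Sham_Nx (SD, n = 4). These shares and sums were not tested.

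**Figure D3:**
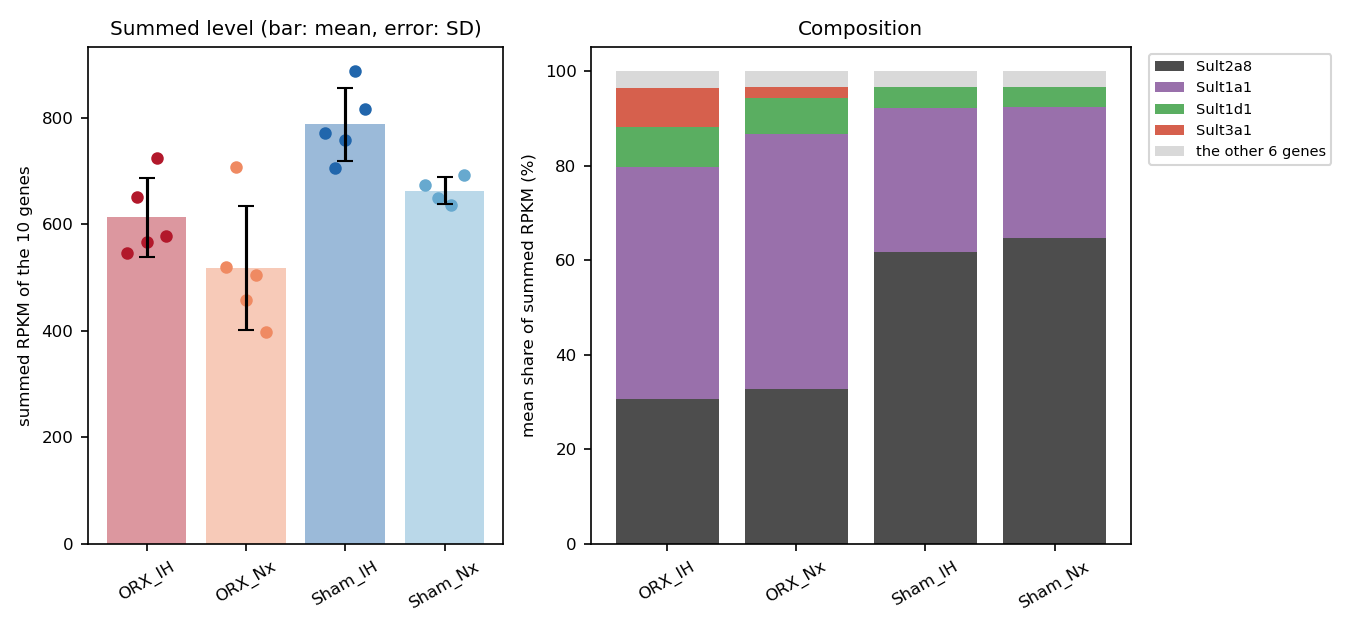
Level and composition of the family in ORX_IH, ORX_Nx, Sham_IH and Sham_Nx. On the left, bars give the mean, error bars the SD and points the single livers of the summed RPKM of the 10 sulfotransferases; on the right, stacked bars give each member's mean share, in percent, of that sum. Sult2a8 takes 30.7% and 32.8% in the orchiectomized groups, against 61.7% and 64.7% in the sham-operated ones.

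The ranges of the groups were compared as well. In ORX_Nx against Sham_Nx, where the CPM ranges of 12.3% of genes did not overlap, Sult1a1 was higher and Sult2a8 lower without overlap, as were, higher, the filter-dependent Sult2a1, Sult2a2, Sult3a1 and Sult3a2. In ORX_IH against Sham_IH, with 5.85% of genes, Sult1a1 was higher and Sult2a8 and Sult5a1 lower without overlap, and so were, higher, Sult3a1 and Sult3a2. Over all orchiectomized against all sham-operated livers, with 1.60% of genes, Sult2a8 was lower and Sult3a1 and Sult3a2 higher without overlap. The 4 members that passed the filter almost entirely through the orchiectomized livers had to differ, and their separation is not read against these shares.

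Intermittent hypoxia was compared with normoxia within each operation, and edgeR called no member changed in either. In ORX_IH against ORX_Nx 0 of the 10 members were called by edgeR, where 0.0742% of all genes were. DESeq2 and limma-voom each called 1, where they called 712 and 16 of 16164 genes, and limma-trend called 0. An unadjusted edgeR p under 0.05 was found for 5 members. The share of all genes at that unadjusted p was not counted, so the 5 give no support to a statement on the family. Sult3a1 was higher in ORX_IH by 1.75 ± 0.53 (edgeR BH-adjusted p = 0.109) and Sult3a2 by 1.60 ± 0.50 (adjusted p = 0.113), on average but with overlap, since ORX_Nx 2 lay within the range of ORX_IH. Without ORX_Nx 2 both were called, at 2.64 (adjusted p = 0.0426) and 2.23 (adjusted p = 0.0488), and limma-voom called Sult3a1 (2.16, adjusted p = 0.0367). Sult2a2 was lower in ORX_IH, with a change of −3.94 ± 0.90 (adjusted p = 0.064). DESeq2 called it (−4.06, adjusted p = 0.00453), as did the edgeR fits without ORX_Nx 3 (−4.23, adjusted p = 0.0342) and without ORX_Nx 4 and 5 (−4.45, adjusted p = 0.0403). Sult5a1 changed by 0.84 ± 0.32 (adjusted p = 0.186) and Sult1d1 by 0.49 ± 0.20 (adjusted p = 0.222). The other changes were 0.72 ± 0.60 for Sult1e1, 0.35 ± 0.18 for Sult1b1, 0.14 ± 0.12 for Sult1a1, 0.10 ± 0.32 for Sult2a8 and −0.54 ± 0.67 for Sult2a1. The CPM ranges of all 10 members overlapped, where those of 2.30% of genes did not.

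In Sham_IH against Sham_Nx 0 members were called by edgeR, where 0.303% of all genes were, 2 had an unadjusted p under 0.05, and DESeq2, limma-voom and limma-trend called 0. The 2 were Sult1a1, with 0.37 ± 0.13 (adjusted p = 0.189), and Sult1b1, with 0.40 ± 0.19 (adjusted p = 0.374). Here too the share of all genes at that unadjusted p was not counted. The changes of Sult1d1 (0.34 ± 0.22), Sult2a8 (0.19 ± 0.34), Sult5a1 (0.14 ± 0.33) and Sult1e1 (0.01 ± 0.67) did not pass an unadjusted p of 0.05. Those of the genes with few counts in sham-operated livers had wide errors, at 0.93 ± 1.12 for Sult2a1, −2.13 ± 1.90 for Sult2a2, −0.84 ± 1.31 for Sult3a1 and −0.03 ± 1.44 for Sult3a2. All 10 ranges overlapped, while 8.52% of genes did not. For the 6 members with counts in every sham-operated liver, the median log2 change with intermittent hypoxia was 0.42 after orchiectomy, beside −0.008 for all genes. After sham surgery it was 0.26, beside 0.005 for all genes. Sult1e1, near the detection floor, is among the 6.

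The interaction asks whether orchiectomy had another effect under intermittent hypoxia than in normoxia. No member was called (0 of 10 by edgeR, and 0 of 10 at an unadjusted p under 0.05, with DESeq2, limma-voom and limma-trend each calling 0), where 0 of 16164 genes were called, or 0%. The member with the lowest p was Sult3a1, with an interaction of 2.60 ± 1.41 (95% interval −0.18 to 5.37, edgeR BH-adjusted p = 0.799). The value was 0.11 in the lowest of the 19 fits with 1 library left out, the fit without Sham_Nx 4, and 3.48 in the highest. The interactions of the members measured in sham-operated livers were 0.71 ± 0.92 for Sult1e1, 0.70 ± 0.46 for Sult5a1, 0.15 ± 0.29 for Sult1d1, −0.05 ± 0.26 for Sult1b1, −0.09 ± 0.47 for Sult2a8 and −0.23 ± 0.17 for Sult1a1. The sparse genes had 1.63 ± 2.22 for Sult3a2, −1.47 ± 1.31 for Sult2a1 and −1.80 ± 4.19 for Sult2a2, with SEs that are only rough at such counts. A difference between exposures of the size of the interval's upper end is therefore within what these data allow for Sult3a1. The comparisons within each exposure and within each operation share libraries and are not independent of each other.

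The authors' deposited table, which tests any difference among groups, gave a q-value to each member. These q-values were not set beside those of all genes and give no support to a statement on the family. Sult3a1, Sult3a2, Sult2a1 and Sult2a2 are the members that had to differ. In the authors' deposited table the lowest were 2.04e-05 for Sult3a2 and 4.95e-05 for Sult3a1, followed by 0.0188 for Sult2a2, 0.0226 for Sult1a1, 0.0276 for Sult5a1 and 0.0439 for Sult2a8. The other q-values in the authors' deposited table were 0.0582 for Sult2a1, 0.169 for Sult1d1, 0.454 for Sult1b1 and 0.674 for Sult1e1.

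Of 11 further cytosolic sulfotransferases in the table, 2 had enough counts to be tested, and edgeR called both higher after orchiectomy in each exposure, where it called 7.88% of all genes higher in normoxia and 1.31% under intermittent hypoxia. Limma-voom called 1 of the 2 in each exposure. Sult1c2 averaged 3.43 ± 1.34 CPM in ORX_IH and 1.75 ± 0.291 CPM in Sham_IH (SD, n = 5 each), a rise of 0.97 ± 0.23 (edgeR BH-adjusted p = 0.0315), and 5.05 ± 0.99 CPM in ORX_Nx (SD, n = 5) and 1.66 ± 0.356 CPM in Sham_Nx (SD, n = 4), a rise of 1.60 ± 0.25 (adjusted p = 0.000599). Sult2a7, which lies next to Sult2a8 in RefSeq's annotation of GRCm38.p6, rose by 1.38 ± 0.33 (adjusted p = 0.0293) under intermittent hypoxia and by 1.27 ± 0.36 (adjusted p = 0.0243) in normoxia, whereas Sult2a8 fell. Sult2a5, which shares sequence with Sult2a2, had 5 counts in ORX_IH and 45 in ORX_Nx, against 0 in both sham groups. Sult2a3 had 4 counts in ORX_IH and 14 in ORX_Nx, against 0 in both sham groups.

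Genes that supply sulfate and its donor held few calls. Of 6 genes of PAPS synthesis, transport and breakdown, 1 was called in the average over exposures, the PAPS synthase Papss2, which rose by 0.50 ± 0.15 (edgeR BH-adjusted p = 0.0259), and the median of the 6 was 0.03 beside 0.005 for all genes. None of 6 listed transporters, which include the citrate transporter Slc13a5 beside those of sulfate, was called in the average (0 at an unadjusted p under 0.05, 0 with DESeq2 and 0 with limma-voom), with a median of 0.04, although Slc26a1, the sulfate anion transporter of the hepatocyte, rose by 0.21 ± 0.07 in normoxia (adjusted p = 0.0409), while in ORX_IH against Sham_IH it changed by −0.08 ± 0.06 (adjusted p = 0.538), with an interaction of −0.29 ± 0.09 (adjusted p = 0.616). None of 9 genes that form sulfate from sulfur amino acids was called (1 at an unadjusted p under 0.05, 0 with DESeq2 and 0 with limma-voom), with a median of 0.06. These shares stand against 22.0% of all genes in the average.

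A list of 7 genes held sulfatases, which remove sulfate, and Sumf1 and Sumf2, which modify sulfatases. In the average 2 of the 7 were called higher and 2 lower, where 11.8% of all genes were called higher and 10.1% lower. Under intermittent hypoxia 1 was lower, and in normoxia 1 was higher and 1 lower. Arsa, the lysosomal arylsulfatase A, fell by 1.04 ± 0.16 in ORX_IH against Sham_IH (edgeR BH-adjusted p = 0.00102) and by 1.08 ± 0.17 in ORX_Nx against Sham_Nx (adjusted p = 0.000568). In the average Ids rose by 0.26 and Arsk by 0.18, and the median of the 7 was −0.09. Of 15 sulfotransferases of the Golgi, which act on sugars and on tyrosine in proteins, 1 was called, the chondroitin sulfotransferase Chst3, which rose by 1.32 ± 0.28 (adjusted p = 0.0153) in ORX_IH and by 1.21 ± 0.30 (adjusted p = 0.0131) in ORX_Nx, and the median of the 15 was 0.12.

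Of 18 receptors and transcription factors known to act on sulfotransferase genes or on sex-dependent liver genes, 3 rose and 1 fell in the average, a share close to the 22.0% of all genes called there, with a median of 0.07. Cux2, a repressor known for its expression in female mouse liver, rose by 1.62 ± 0.31 in ORX_IH against Sham_IH (edgeR BH-adjusted p = 0.00675) and by 1.52 ± 0.34 in ORX_Nx against Sham_Nx (adjusted p = 0.0084). Cux2 averaged 22.7 CPM in ORX_IH, 7.96 in ORX_Nx, 7.37 in Sham_IH and 2.76 in Sham_Nx. The Sham_IH livers (4.77 to 11.4 CPM) lay above Sham_Nx (2.25 to 3.41 CPM) and overlapped ORX_Nx (6.3 to 11.1 CPM). Bcl6, a repressor known for male-biased expression, fell by 2.96 ± 0.56 in ORX_IH against Sham_IH (adjusted p = 0.00593), and in ORX_Nx against Sham_Nx its change was −0.33 ± 0.54 and was not called (adjusted p = 0.726). The interaction of Bcl6 was −2.63 ± 0.78 with an adjusted p of 0.537. Stat5b, which carries the growth hormone signal, rose by 0.43 ± 0.10 in normoxia (adjusted p = 0.00773), and under intermittent hypoxia its change of 0.14 ± 0.09 was not called (adjusted p = 0.451). Foxa2 rose by 0.60 ± 0.15 in the average (adjusted p = 0.00951) and was called in neither exposure alone, with adjusted p of 0.0701 in ORX_IH against Sham_IH and 0.148 in ORX_Nx against Sham_Nx.

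**Figure D4:**
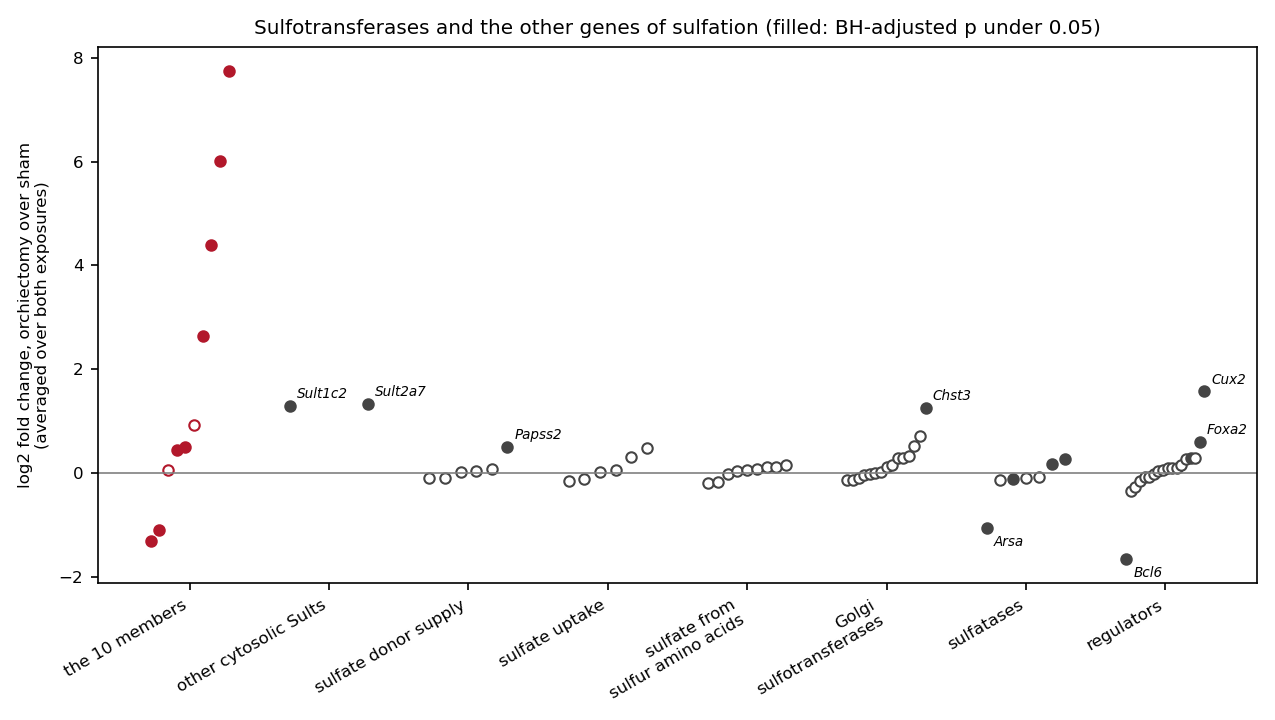
Log2 fold change after orchiectomy, averaged over both exposures, of the genes of each pathway list, with filled points for a BH-adjusted p under 0.05. Papss2 lies at 0.50, Arsa at −1.06 and Cux2 at 1.57, while the medians of the lists for donor supply, uptake and sulfate formation are 0.03, 0.04 and 0.06.

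For each member the genes outside the family with the most alike pattern were found by the root mean square (RMS) difference of log2 CPM over the 19 libraries, each gene centred on its own mean. For Sult3a1, whose own RMS spread was 4.3, the nearest were Slc22a26, an organic anion transporter, at 1.49, and the cytochromes P450 Cyp2b13 at 1.56 and Cyp2b9 at 1.70. For Sult3a2, with a spread of 2.26, they were Gm29920 at 0.74, Cyp2c69 at 0.79 and Rsph4a, its neighbour beyond Sult3a1, at 0.85. For Sult2a8, with a spread of 0.94, they were Olfr1160 at 0.36, the major urinary protein Mup3 at 0.39 and the carboxylesterase Ces3a at 0.41. Sult5a1, with a spread of 0.87, was nearest to the serine protease inhibitor Serpina3k at 0.43, to Lad1 at 0.45 and to the complement gene C8b at 0.46. For Sult2a2, with a spread of 2.22, the nearest was Cyp3a41a at 1.43. Sult1a1 and Sult1d1 varied little, with spreads of 0.31 and 0.43, and their nearest genes were Gstm7 at 0.17 and Mr1 at 0.25. For Sult1b1 they were led by Gm18236 at 0.17, for Sult1e1 by Lpl at 0.59 and for Sult2a1 by A930017M01Rik at 0.84. The libraries share surgery and depth, and these distances are descriptions.

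In RefSeq's annotation of GRCm38.p6 Sult1b1, Sult1d1 and Sult1e1 follow each other, and of the 3 only Sult1d1 was called in the average. Sult2a2 and Sult2a1 are neighbours, as are Sult3a2 and Sult3a1, and both pairs were higher in the average. Both pairs passed the filter almost entirely through the orchiectomized livers and had to differ, and the genes of each pair share sequence. Their like direction therefore gives no support to a statement on neighbours. Sult2a8 lies between Sult2a6 and Sult2a7 on the same chromosome as Sult2a1, and it was lower.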

How the data were processed

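Poly(A)-selected RNA of frozen male mouse liver was sequenced from strand-specific libraries, per the labels' protocols, and handled with bcl2fastq 2.20, fastp 0.23.2, FastQC 0.11.9, MultiQC 1.12 and kallisto 0.46.1 on GRCm39, per the submitters' processing notes. The authors deposited estimated counts per gene, of which 27.5% were not whole, and these expected counts were rounded before testing. The authors also deposited a normalized log2 table holding an F-statistic (a score), a p-value and a q-value for each gene. The sources used here do not give its normalization, and over 12175 genes it differed from log2 RPKM computed here by a median of 0.0762. The deposited counts hold 19 libraries, and Sham_Nx mouse 1 was not analysed here.

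The filter filterByExpr (minimum count 10) left 16164 genes. Libraries were scaled by trimmed mean of M-values (TMM), which also enters CPM and RPKM, and edgeR 4.0.16 in R 4.3.3 fitted its quasi-likelihood model over the 4 groups, with BH adjustment over all genes tested. SEs follow from each fold change and F value, and 95% intervals from the SE and the normal quantile. The SEs are only rough for members with few counts in sham-operated livers, whose fold changes depend on the prior count. The intervals are approximate and narrower than the F-test implies. That of Sult1d1 in ORX_Nx against Sham_Nx, 0.01 to 0.85, leaves out 0 at an unadjusted edgeR p of 0.0617. Pseudo-alignment can split reads between near-identical genes. No replicate pair agreed within sampling noise (chi-square per degree of freedom 20.7 to 198). Alternatives were other scalings, no filter, DESeq2 1.42.0, limma 3.58.1 (voom, and limma-trend on the authors' table), a replicate block, fewer libraries and summed near-identical genes. All members are named in every comparison; of the pathway lists, genes past the threshold may be named, and for each member the 3 genes with the most alike pattern were found. The members and lists were chosen with earlier results of these data known. The values of 2 genes of these lists are not reported here.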

Additional observations from a re-analysis of the deposited data

Results flagged for a closer look

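A library far from the others of its group was looked for in 40 sets of values, 10 genes in 4 groups, and 4 were found. For continuous values chance alone marks about 1 in 20 sets, a rate that does not hold for groups of near-zero counts. Sult3a1 in ORX_IH 4, at 23.1 CPM, was the lowest of ORX_IH, whose other livers lay between 45.3 and 59.7 CPM. Its gap to the next liver was 0.71 of the group's range on the log2 scale, only just past the cutoff. The other 3 are single counts in groups that otherwise held 0 counts, which the rule always marks. They are Sult2a2 in Sham_IH 5, at 0.0178 CPM, Sult3a2 in Sham_IH 5, also at 0.0178 CPM, and Sult3a2 in Sham_Nx 4, at 0.0162 CPM. Sham_IH 5 was also the library highest in pancreatic genes, and without it the change of Sult3a2 under intermittent hypoxia was 8.34 (log2).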

How the results depend on the processing

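All values are log2 changes or counts of members called by edgeR unless another tool is named. Of the 18 changes of single members that were called, 194 of 217 values under other scalings, filters, tools, fits and sets of libraries, and 322 of 334 with 1 library left out, kept their direction and side of the threshold. The others kept their direction but missed the threshold. DESeq2 gave no adjusted p for some changes of Sult2a1 and Sult2a2, and without some libraries Sult2a2 missed the filter. With only ORX_Nx and Sham_Nx in the fit Sult2a1, Sult2a2 and Sult3a2 missed it. These values could not be given.

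Brackets here give all genes called in the same fit. Members called in ORX_Nx against Sham_Nx numbered 1 with only the groups compared in the fit (918 of 15342) and 1 without the muscle-rich libraries (422 of 16697). In the first of these fits Sult2a1, Sult2a2 and Sult3a2 were not tested. In ORX_IH against Sham_IH they numbered 5 with no scaling factors (971 of 16164) and 5 with only the groups compared (598 of 15144). In ORX_IH against ORX_Nx they numbered 1 with DESeq2 (712 of 16164) and 1 with limma-voom (16 of 16164). There they also numbered 1 without the 2 libraries highest in acute phase genes (40 of 16330). With 1 library left out they numbered 0 to 2, the 2 without ORX_Nx 2 (212 of 16141). In the average they numbered 5 without the muscle-rich libraries (1306 of 16697, against 3549 of 16164 in the main fit). Sult1d1, Sult2a1 and Sult2a2 were not called there, in a fit that keeps only 2 Sham_Nx libraries, mice 4 and 5. The cause was not tested. With limma-voom Sult3a2 rose by 5.53 in ORX_IH against Sham_IH and by 4.13 in ORX_Nx against Sham_Nx.

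The changes that turned their sign were not called in any of these settings. With 1 library left out, Sult1b1 ranged from −0.08 to 0.19 in ORX_Nx against Sham_Nx, −0.15 to 0.13 in ORX_IH against Sham_IH, −0.03 to 0.11 in the average and −0.23 to 0.11 in the interaction. Sult1e1 ranged from −0.22 to 1.21 in ORX_Nx against Sham_Nx. In Sham_IH against Sham_Nx Sult1e1 ranged from −0.24 to 0.63, Sult2a1 from −0.70 to 1.42, Sult3a1 from −1.25 to 1.64, Sult3a2 from −1.54 to 1.5 and Sult5a1 from −0.04 to 0.26. Sult2a8 ranged from −0.16 to 0.29 in ORX_IH against ORX_Nx and from −0.33 to 0.11 in the interaction, where Sult1d1 ranged from −0.03 to 0.31 and Sult2a1 from −1.96 to 0.17.

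In other settings, ORX_Nx against Sham_Nx gave Sult1e1 at −0.35 without mouse 5 of each group and −0.80 without the acute phase libraries, and Sult1b1 at −0.05 without the muscle-rich ones. In Sham_IH against Sham_Nx Sult1e1 was 0.00 with no scaling factors, −0.01 with no filter, −0.01 with DESeq2, −0.38 without mouse 5 of each group, −0.46 without the muscle-rich and −0.37 without the pancreas-rich libraries. There Sult3a2 was 0.18 with DESeq2, 0.25 with limma-voom and 0.23 with limma-trend, Sult3a1 0.26 with limma-voom and 0.25 with limma-trend, and Sult2a1 summed with Sult2a2 −0.14. Sult2a8 in ORX_IH against ORX_Nx was −0.13 without mouse 5 of each group and −0.16 without the acute phase libraries. In the interaction Sult2a8 was 0.21 with limma-voom, 0.19 with limma-trend and 0.02 without the muscle-rich libraries, where Sult1b1 was 0.16.

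The labels do not say that the mouse numbers pair the livers. Of 18 pairs with the same number, 3 had deviations correlated above 0.1 (range −0.197 to 0.395). The highest was between Sham_IH 5 and Sham_Nx 5. Of 19 libraries, 8 correlated best with a library of their own number in another group. Whether the numbers mark a shared factor was not tested beyond a fit with the number as a block. With the replicate block 7, 3, 0, 0, 0 and 8 members were called in ORX_Nx against Sham_Nx, ORX_IH against Sham_IH, Sham_IH against Sham_Nx, ORX_IH against ORX_Nx, the interaction and the average, the counts without the block. The calls over all genes fell. In the same order they were 1794, 346, 34, 0, 0 and 3130 of 16164 with the block, against 2319, 465, 49, 12, 0 and 3549 without it. The block turned the sign of Sult1e1 in Sham_IH against Sham_Nx (−0.06) and set the interaction of Sult2a8 at 0.00. Depth limits Sult2a1, Sult2a2 and Sult3a2, whose sham-operated livers held at most 6 counts each.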
